A study of Homo sapiens with 8 samples.

Results

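The Notch receptors, ligands and targets described here are 10 genes, taken by gene name from a table of 60558 genes: the receptors NOTCH1, NOTCH2, NOTCH3 and NOTCH4, the ligands JAG1, JAG2, DLL1 and DLL4, and the target genes HES1 and HEY1. All 10 names were found, each on 1 row. RNA was measured in 8 libraries of 2D human intestinal epithelial cells (hIECs) differentiated from the embryonic stem cell line H9, with 2 libraries in each of 4 groups. Normal hIECs received neither agent, and inflamed hIECs received the cytokines IFNγ and TNFα, each at 50 ng/ml, for 10 days. A second normal and a second inflamed group were also exposed to PM10, coarse airborne particulate matter, at 100 µg/ml for the last 7 days. The genotype field of the labels separates only libraries with and without PM10 and names no altered gene, so all groups share 1 genetic background and 1 cell line, without immune cells. No source says whether the 2 libraries of a group came from separate cultures, so p-values measure only the spread between these libraries, which may be technical.

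Notch receptors sit in the cell membrane and are activated by ligands of the Jagged and Delta-like families on a neighbouring cell. Ligand binding lets an ADAM protease and then gamma-secretase cut the receptor, and the freed intracellular domain enters the nucleus, where it joins the DNA-binding protein RBPJ and a Mastermind coactivator to switch on genes such as HES1 and HEY1. Fringe enzymes place sugars on the receptor that change how well it answers Jagged and Delta-like ligands. In the intestinal crypt the pathway keeps progenitors dividing and, through HES1, holds down ATOH1, the gene that commits cells to the secretory lineages, while in mesenchyme NOTCH3 and JAG1 are known for their roles in pericytes and smooth muscle.

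The labelled cell type was set against marker genes. Of 12 intestinal epithelial markers, 6 were listed at 0 in all 8 libraries, namely CDX2, VIL1, LYZ, MUC2, CHGA and KRT20, and EPCAM did not exceed 0.62 FPKM. The 9 mesenchymal markers were all above 0, with a summed level of 2702 to 3592 FPKM, against 297 to 665 FPKM for the epithelial list, nearly all of it from KRT8 and KRT18. SOX9 and LGR5 of the same list were 3.66 to 14.97 and 2.01 to 8.28 FPKM. A 0 listed at unknown depth is not proof of absence, but these libraries did not show the defining markers of an intestinal epithelium at the level of the RNA listed. In bulk RNA, fewer cells of a type and less RNA per cell cannot be told apart.

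The promoters of HES1 and JAG1 are shown because HES1 was the most abundant member in normal hIECs and JAG1 was the member whose response to PM10 turned with the cytokines. Each is the 250 bases before the transcription start in RefSeq (GRCh38.p14), written 5′ to 3′ on the strand of the gene. Capitals mark GTGGGAA, the core letters bound by RBPJ, and GCGTG, the core letters bound by the aryl hydrocarbon receptor, a sensor of polycyclic hydrocarbons carried by airborne particles, each searched on both strands so that GCGTG on the other strand reads CACGC.
HES1, chr3:194135898-194136147, plus strand: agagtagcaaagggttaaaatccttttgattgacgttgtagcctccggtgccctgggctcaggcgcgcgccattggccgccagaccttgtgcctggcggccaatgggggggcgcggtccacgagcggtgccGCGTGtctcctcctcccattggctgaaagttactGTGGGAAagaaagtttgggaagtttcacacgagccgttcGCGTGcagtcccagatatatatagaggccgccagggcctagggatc
JAG1, chr20:10674000-10674249, minus strand: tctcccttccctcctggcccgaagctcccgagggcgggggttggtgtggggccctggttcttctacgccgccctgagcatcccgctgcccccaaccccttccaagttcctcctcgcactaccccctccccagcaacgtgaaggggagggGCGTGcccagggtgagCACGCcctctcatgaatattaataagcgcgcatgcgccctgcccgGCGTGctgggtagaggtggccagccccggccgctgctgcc

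The HES1 window held GTGGGAA once, 85 to 79 bases before the start, and GCGTG at 2 places. The JAG1 window held GCGTG at 3 places, 101 to 97, 85 to 81 and 40 to 36 bases before the start, and no GTGGGAA. RefSeq promoters were found for 8 of the 10 members. Among those 8, GTGGGAA was in 1 and GCGTG in 6. Of 34943 promoter windows of the same length, 5.41% held GTGGGAA and 32.2% held GCGTG. A match describes the letters in the window and says nothing of binding.

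Values are FPKM, fragments scaled to transcript length and to the mapped fragments of the library, as the authors estimated them, so that levels may be compared between genes. Read depth per library was not given in the files and is unknown. The libraries listed 16547 to 18926 genes above 0, the lowest value above 0 was 0.164 to 0.228 FPKM, and genes of the mitochondrial genome held 15.5 to 24.2% of all FPKM. CXCL10, a chemokine gene induced by IFNγ, was 1.15 to 1.73 FPKM in the 4 libraries without cytokines and 1254 to 1314 FPKM in the 4 with them. CYP1B1, a gene switched on through the aryl hydrocarbon receptor, rose with PM10 by 3.14 in normal and 2.76 in inflamed hIECs on the log2(FPKM + 1) scale, and also with cytokines alone by 2.35. Differences were tested with limma on log2(FPKM + 1) over the 14206 genes that reached 1 FPKM in at least 2 libraries. A gene was called where its Benjamini-Hochberg adjusted p over all those genes was under 0.05. An exact permutation test of 2 libraries against 2 cannot give a two-sided p below 0.333.

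In normal hIECs the members ranked, by mean FPKM, HES1, NOTCH3, NOTCH2, JAG1, HEY1, NOTCH1, JAG2, DLL1, NOTCH4 and DLL4. The ranges of JAG2 and DLL1 overlapped, as did those of NOTCH4 and DLL4. With PM10 alone the ranges of NOTCH2 and NOTCH3 overlapped, as did those of HEY1 and JAG1 and of DLL1 and JAG2. In inflamed hIECs, with or without PM10, NOTCH2 was first and HES1 second, followed by NOTCH3, JAG1 and NOTCH1. Below these, HEY1 came before NOTCH4 in inflamed hIECs and after it in inflamed hIECs with PM10, while JAG2, DLL1 and DLL4 were all listed at 0.

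**Figure D1:**
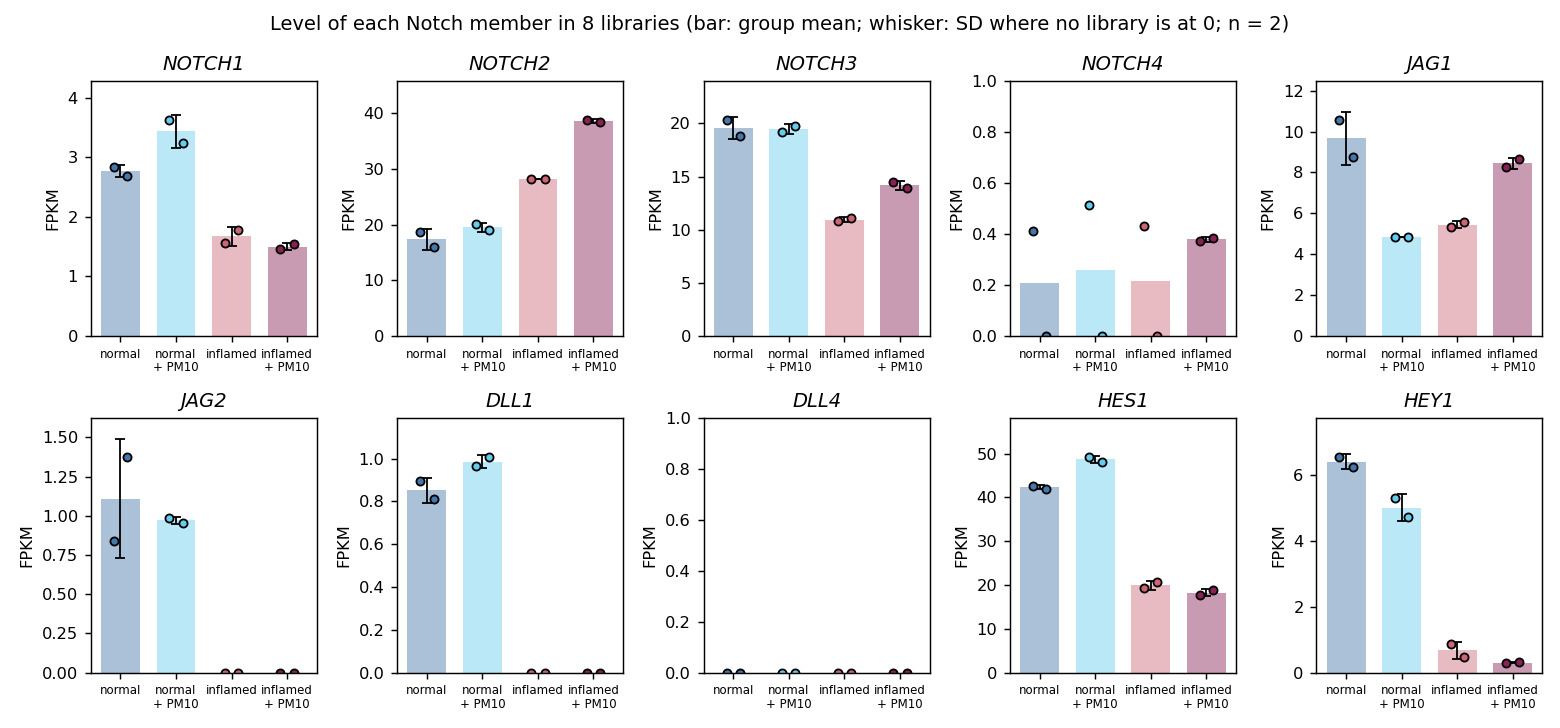
FPKM of the 10 members in 8 libraries, 1 panel a gene with its own linear axis from 0; points are libraries, bars group means, and whiskers the SD where no library is at 0 (n = 2). HES1 and HEY1 are lower in every library with cytokines than in every library without, NOTCH2 is higher, and JAG1 is high in the normal and the inflamed PM10 groups.

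NOTCH2 and NOTCH3, the 2 main receptors, moved in opposite directions with the cytokines, so that NOTCH2 became the main receptor transcript. NOTCH1 fell as well, and NOTCH4 was barely detected.

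NOTCH2 (ENSG00000134250, GRCh38 chr1:119911553-120100779, minus strand) was 18.7 and 16.04 FPKM in normal hIECs and 20.1 and 19.0 FPKM in normal hIECs with PM10. It was 28.1 and 28.2 FPKM in inflamed hIECs and 38.8 and 38.4 FPKM in inflamed hIECs with PM10. Every cytokine library was above every library without cytokines, and within the inflamed state both PM10 libraries were above both others. On the log2(FPKM + 1) scale NOTCH2 rose by 0.67 (SE 0.073, limma adjusted p = 0.000202) with cytokines alone and by 0.95 (SE 0.073, adjusted p = 2.54e-05) with cytokines in the presence of PM10. PM10 raised it in inflamed hIECs by 0.44 (adjusted p = 0.00959), while in normal hIECs the difference of 0.16 did not pass (adjusted p = 0.187). That difference between the states, 0.28, did not pass either (adjusted p = 0.165). NOTCH2 shares nearly identical sequence with the NOTCH2NL genes, and the counting could have split reads between them. NOTCH2NLA was listed at 5.40 and 5.10 FPKM in normal hIECs and 4.67 and 4.34 FPKM with PM10, and at 6.56 and 6.71 FPKM in inflamed hIECs and 6.32 and 5.99 FPKM with PM10. Like NOTCH2 it was higher in every cytokine library, and unlike NOTCH2 it was lower with PM10 in the inflamed state.

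NOTCH3 (ENSG00000074181, chr19:15159038-15200995, minus strand) was 20.3 and 18.9 FPKM in normal hIECs and 19.2 and 19.8 FPKM in normal hIECs with PM10. It was 10.8 and 11.1 FPKM in inflamed hIECs and 14.5 and 13.9 FPKM in inflamed hIECs with PM10. The 2 normal groups overlapped, the inflamed hIECs were lowest, and the inflamed hIECs with PM10 lay between. NOTCH3 fell by 0.79 (SE 0.058, limma adjusted p = 2.86e-05) with cytokines alone, and with PM10 present it fell by 0.43 (SE 0.058, adjusted p = 0.000437). PM10 raised it by 0.35 (adjusted p = 0.00991) in inflamed hIECs, and the difference in normal hIECs was -0.0076 (adjusted p = 0.947). The PM10 difference was larger in the inflamed than in the normal state by 0.35 (SE 0.082, adjusted p = 0.0493), a call at the edge of the threshold that was lost in 10 of 18 alternative analyses, with adjusted p from 0.0167 to 0.156 over all 18. The call was lost with each of 7 of the 8 libraries left out in turn (adjusted p = 0.0591 to 0.156; the exception was normal library 2), without a filter (0.0677), without a variance trend (0.0703) and with the replicate block (0.0708).

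NOTCH1 (ENSG00000148400, chr9:136494433-136546048, minus strand), the receptor first described in T cell leukaemia, was 2.84 and 2.69 FPKM in normal hIECs and 3.63 and 3.24 FPKM with PM10. It was 1.56 and 1.79 FPKM in inflamed hIECs and 1.45 and 1.55 FPKM in inflamed hIECs with PM10, so all 4 cytokine libraries lay below the other 4. It fell by 0.50 (SE 0.085, limma adjusted p = 0.00197) with cytokines alone and by 0.83 (SE 0.085, adjusted p = 0.000112) with PM10 present. Neither PM10 comparison passed for NOTCH1, at 0.23 in normal hIECs (adjusted p = 0.122) and -0.096 in inflamed hIECs (adjusted p = 0.478). NOTCH4 (ENSG00000204301, chr6:32194843-32224067, minus strand), best known from endothelium, was listed at 0 in 3 libraries and reached at most 0.51 FPKM, so it was not tested. Its exons overlap those of GPSM3 on the same strand, listed at 9.01 to 12.3 FPKM, and reads in the overlap could belong to either gene.

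Over the 4 receptors, NOTCH2 held 44.2 and 42.7% of the summed FPKM in normal hIECs and 46.3 and 45.1% with PM10. In inflamed hIECs it held 68.8 and 68.6%, and 70.4 and 70.8% with PM10. The ratio of NOTCH2 to NOTCH3 was 0.885 ± 0.049 (SD, n = 2) in normal hIECs and 2.58 ± 0.050 in inflamed hIECs, and it was 1.00 ± 0.065 and 2.72 ± 0.059 in the matching PM10 groups. The sum itself was 37.6 to 43.4 FPKM in the 6 libraries outside the inflamed PM10 group and 55.1 and 54.2 FPKM in that group. The make-up of the receptor RNA thus differed between libraries with and without cytokines, and the sum was higher where PM10 was added to the cytokines.

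**Figure D2:**
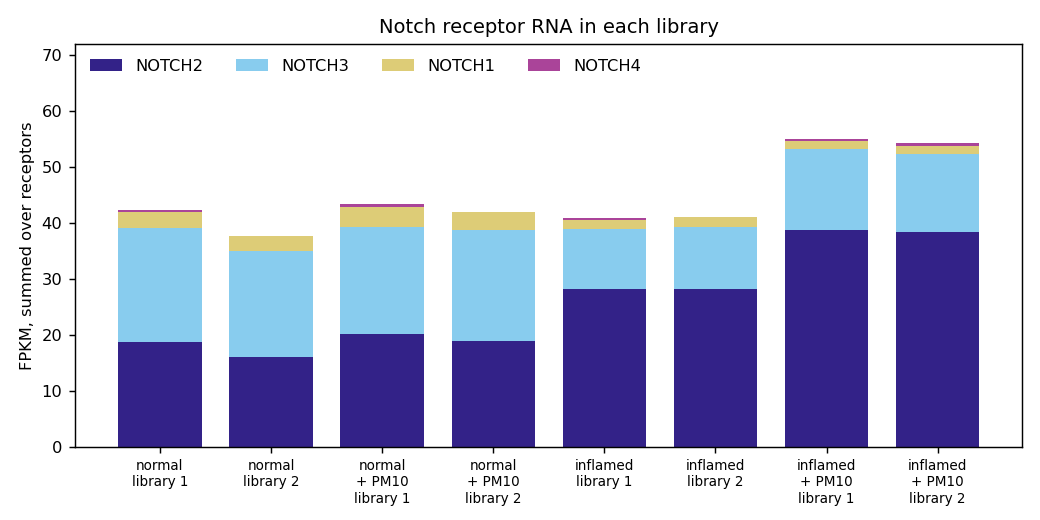
Stacked FPKM of the 4 Notch receptors in each of the 8 libraries, on a linear axis from 0. NOTCH2 and NOTCH3 take near-equal parts in the 4 libraries without cytokines, and NOTCH2 takes 68.6 to 70.8% of the stack in the 4 libraries with them.

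Among the ligands JAG1 carried most of the signal, and its response to PM10 had opposite signs in the 2 states. JAG2 and DLL1 were listed at 0 wherever cytokines had been given, and DLL4 was listed at 0 in every library.

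JAG1 (ENSG00000101384, chr20:10637684-10673999, minus strand) was 10.6 and 8.75 FPKM in normal hIECs and 4.83 and 4.85 FPKM in normal hIECs with PM10. It was 5.34 and 5.56 FPKM in inflamed hIECs and 8.25 and 8.64 FPKM in inflamed hIECs with PM10. The order of the groups was therefore normal, inflamed with PM10, inflamed, and normal with PM10, with no overlap between neighbours, although the normal libraries differed from each other more than those of any other group. PM10 left JAG1 at 50.1% of its mean in normal hIECs, a fall by 0.86 on the log2(FPKM + 1) scale (SE 0.087, limma adjusted p = 0.00304). In inflamed hIECs PM10 raised it to 155% of its mean, by 0.55 (SE 0.087, adjusted p = 0.00767). The 2 responses differed by 1.41 (SE 0.12, adjusted p = 0.00178), and this difference passed in all 18 alternative analyses, at 1.29 to 1.60 (adjusted p = 0.000891 to 0.0153). The cytokine response of JAG1 turned as well, falling by 0.72 (adjusted p = 0.000323) without PM10 and rising by 0.69 (adjusted p = 0.000299) with it. The fall with PM10 did not pass in a fit of the 4 normal libraries alone (adjusted p = 0.0921). An antisense gene whose exons overlap JAG1 was listed at 0 in all 8 libraries, and the libraries did not keep strand.

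JAG2 (ENSG00000184916, chr14:105140982-105168824, minus strand), the other Jagged ligand, was 0.84 and 1.38 FPKM in normal hIECs and 0.99 and 0.95 FPKM with PM10, and it was listed at 0 in the 4 cytokine libraries. DLL1 (ENSG00000198719, chr6:170282206-170306565, minus strand), a Delta-like ligand of crypt cells, was 0.89 and 0.81 FPKM in normal hIECs and 0.96 and 1.01 FPKM with PM10, and likewise listed at 0 in all 4 cytokine libraries. Both were below the level set for testing, and no fold is given against groups at 0. DLL1 exons overlap FAM120B on the opposite strand. FAM120B was 6.54 to 7.79 FPKM without cytokines and 6.56 to 7.67 FPKM with them, so the neighbour did not drop out with DLL1. DLL4 (ENSG00000128917, chr15:40929340-40939073, plus strand), the Delta-like ligand of sprouting vessels and of crypts, was listed at 0 throughout. Over the 4 ligands JAG1 made up 71.2 to 85.9% of the summed FPKM without cytokines and 100% with them.

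**Figure D3:**
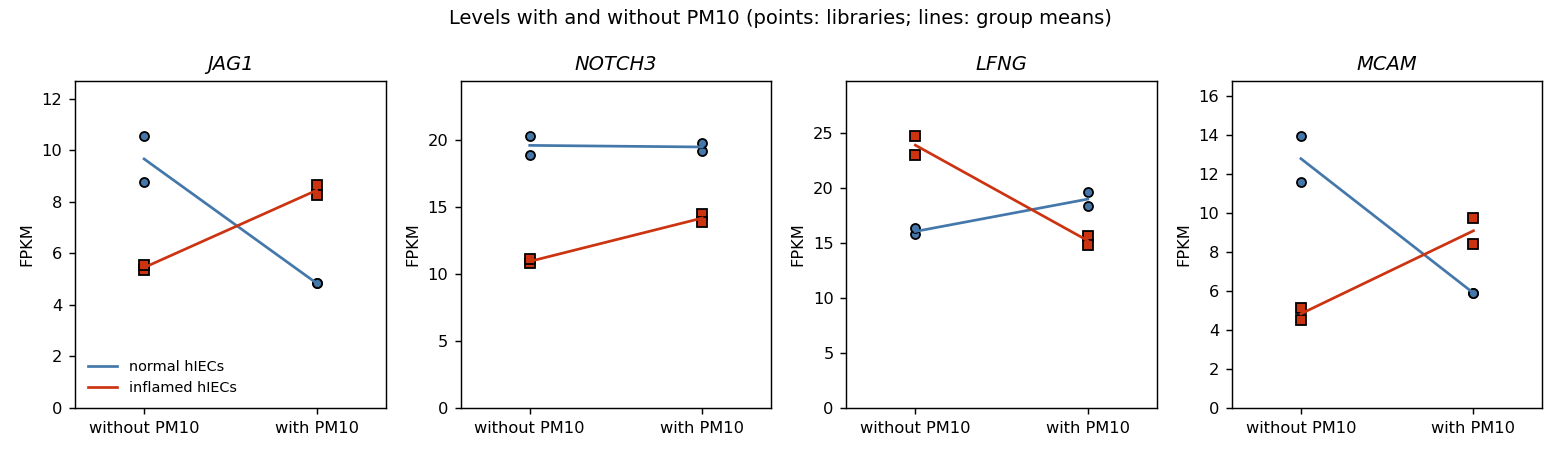
FPKM without and with PM10 in normal (blue circles) and inflamed (red squares) hIECs for JAG1, NOTCH3, LFNG and MCAM, on linear axes from 0; points are libraries and lines join group means. The lines of JAG1 and MCAM cross, falling in normal and rising in inflamed hIECs, those of LFNG cross the other way, and the line of NOTCH3 rises in inflamed hIECs and is near flat in normal hIECs. MCAM was among the genes ranked most like JAG1 over these libraries, so its like crossing is no separate support.

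HES1 fell with cytokines, HEY1 was low in every cytokine library, and the PM10 comparisons did not pass for either target gene. HES1 (ENSG00000114315, chr3:194136148-194138732, plus strand), the repressor that Notch induces in crypt progenitors, was 42.6 and 42.0 FPKM in normal hIECs and 49.3 and 48.1 FPKM in normal hIECs with PM10. It was 19.3 and 20.7 FPKM in inflamed hIECs and 17.8 and 18.8 FPKM in inflamed hIECs with PM10. All cytokine libraries lay below all others, and both normal PM10 libraries lay above both normal ones. HES1 fell by 1.05 (SE 0.055, limma adjusted p = 5.00e-06) with cytokines alone, to 47.2% of the normal mean. With PM10 present it fell by 1.37 (SE 0.055, adjusted p = 9.50e-07), to 37.5% of the mean of normal hIECs with PM10. PM10 differences were 0.20 in normal hIECs (adjusted p = 0.0630) and -0.12 in inflamed hIECs (adjusted p = 0.180), and the states differed by -0.32 (adjusted p = 0.0558). The first of these passed with a filter of 5 FPKM (adjusted p = 0.0473) and with mitochondrial genes left out (adjusted p = 0.0311), and the last passed under the same 2 settings (adjusted p = 0.0429 and 0.0439).

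HEY1 (ENSG00000164683, chr8:79762371-79767857, minus strand), a related repressor known from vessels and heart, was 6.57 and 6.25 FPKM in normal hIECs and 5.31 and 4.74 FPKM with PM10. It was 0.86 and 0.49 FPKM in inflamed hIECs and 0.30 and 0.31 FPKM in inflamed hIECs with PM10, the last 2 close to the lowest values the files list. The inflamed mean was 10.5% of the normal mean, and with PM10 in both states it was 6.11%. HEY1 passed the filter only through the groups without cytokines, where it was high, so its cytokine differences of -2.16 and -2.203 on the log2(FPKM + 1) scale are given as a description and without a p. The PM10 differences were -0.30 in normal hIECs (adjusted p = 0.136) and -0.35 in inflamed hIECs (adjusted p = 0.0838). The second passed with a pseudocount of 0.1 (adjusted p = 0.0410) and without library 2 of the inflamed hIECs (adjusted p = 0.0491).

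**Figure D4:**
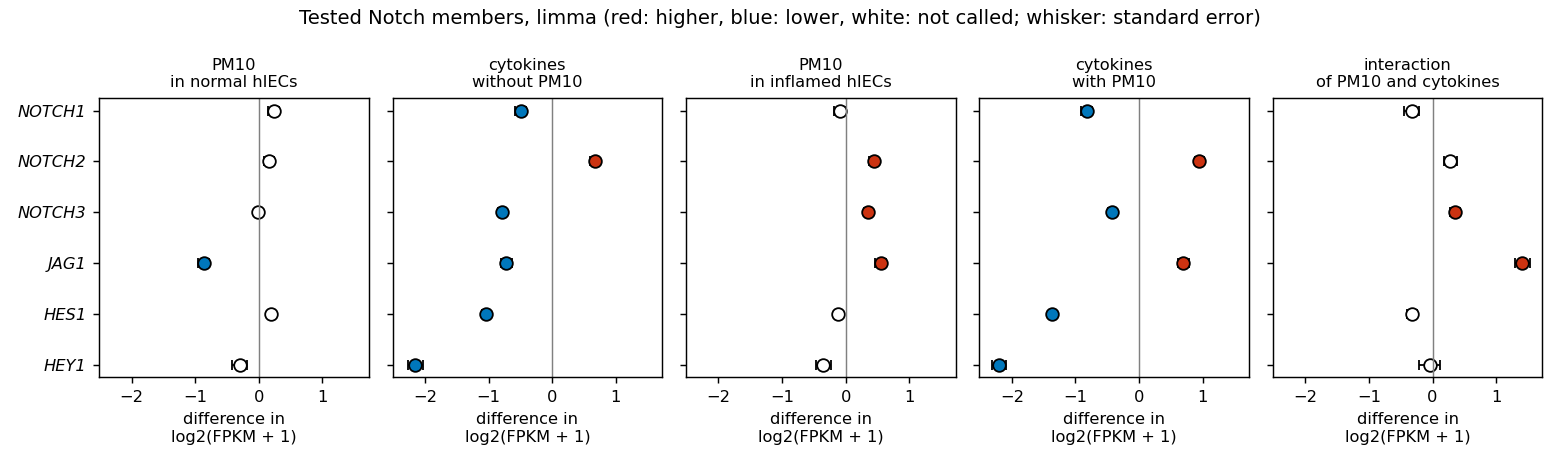
Differences in log2(FPKM + 1) of the 6 members tested, with standard errors, in 4 comparisons and the interaction; red is called higher, blue called lower and white not called by limma. JAG1 lies left of 0 for PM10 in normal hIECs and right of 0 for PM10 in inflamed hIECs, and HES1 and HEY1 lie furthest left in both cytokine comparisons. The colour of HEY1 in those comparisons is no result, since it passed the filter only through the groups without cytokines.

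Of the 10 members 6 were tested, namely NOTCH1, NOTCH2, NOTCH3, JAG1, HES1 and HEY1. With PM10 in normal hIECs 1 was called lower (JAG1) and 0 higher, where limma called 9.23% of all genes tested, 3.72% lower and 5.51% higher. At an unadjusted p under 0.05, NOTCH1 and HES1 were higher and HEY1 lower in that comparison. With cytokines alone, and with HEY1 set aside because the filter favoured its call there, 4 of the other 5 were lower and 1 higher, against a background in which 56.2% of genes were called, 30.3% lower and 25.9% higher, so that a call by itself was common. With PM10 in inflamed hIECs 3 were higher (NOTCH2, NOTCH3 and JAG1) and 0 lower, against 15.2% of genes called, 6.22% higher and 9.02% lower. In that comparison HEY1 was lower at an unadjusted limma p under 0.05, but at levels of only 0.30 to 0.86 FPKM. Each of these 3 calls was lost when 1 library or another was left out. NOTCH2 lost its call without any 1 of those 4 libraries (adjusted p = 0.0586 to 0.0629), NOTCH3 without either inflamed library or inflamed PM10 library 1 (0.0541 to 0.0724), and JAG1 without inflamed library 1 (0.0572) or inflamed PM10 library 2 (0.0578). With cytokines in the presence of PM10, again without HEY1, 3 were lower and 2 higher, against 65.4% of genes called, 39.6% lower and 25.8% higher. The interaction of PM10 and cytokines was called for JAG1 and NOTCH3, both higher, against 6.6% of all genes, 2.11% higher and 4.48% lower. The comparisons share libraries, so their calls are not independent of each other.

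The rest of the pathway was read from a list of 63 further genes in 10 roles, of which 51 passed the filter and 5 were listed at 0 in all libraries (HES2, HES5, ATOH1, NEUROG3 and GFI1). With cytokines alone 16 were higher, 15 lower and 20 not called, with a median difference of 0.10 against -0.028 over all genes tested. With PM10 in inflamed hIECs 4 were higher and 5 lower, 17.6% of the list against 15.2% of all genes. With PM10 in normal hIECs the 4 called were higher (PSEN2, APH1A, MAML1 and EP300), 7.84% of the list against 9.23% of all genes. PSEN2 lost that call without normal library 2 or either normal PM10 library (adjusted p = 0.0599 to 0.112), and APH1A, MAML1 and EP300 lost theirs without any 1 library other than normal library 1 (0.0599 to 0.145, 0.0614 to 0.155 and 0.0866 to 0.188). Over all 19 alternatives the calls of PSEN2, APH1A, MAML1 and EP300 held in 15, 10, 11 and 4. Of the list, 31 genes (60.8%) were called with cytokines alone, near the background of 56.2%, so the direction within each role is described rather than the number of calls. The 31 include DLK2 and DTX1, which passed the filter only through the groups without cytokines. They also include DTX4, which passed it only through the groups with cytokines, where it was higher.

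Among the other ligands DLK1 fell with cytokines. DLK1, a Delta-like protein that lacks the domain of the activating ligands and is often described as an inhibitor of Notch, was 122 and 142 FPKM in normal hIECs and 163 and 166 FPKM with PM10. It was 5.16 and 5.35 FPKM in inflamed hIECs and 2.50 and 1.91 FPKM in inflamed hIECs with PM10. DLK1 fell by 4.41 with cytokines alone (SE 0.10, limma adjusted p = 8.39e-08), and PM10 lowered it further by 0.97 in inflamed hIECs (adjusted p = 0.00156), while in normal hIECs the difference was 0.32 (adjusted p = 0.0866). DLK2, its relative, was 0.90 to 1.52 FPKM without cytokines and 0 to 0.42 FPKM with them, and passed the filter only through the groups without.

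Of the 4 sugar-adding enzymes tested, 3 were called higher and 1 lower with cytokines alone, where 56.2% of all genes tested were called. LFNG, the Fringe enzyme that favours Delta-like over Jagged ligands, was 15.8 and 16.3 FPKM in normal hIECs and 19.6 and 18.4 FPKM with PM10. It was 23.0 and 24.7 FPKM in inflamed hIECs and 15.6 and 14.8 FPKM in inflamed hIECs with PM10. LFNG thus rose with cytokines alone by 0.55 (limma adjusted p = 0.000241) and fell with PM10 in inflamed hIECs by 0.62 (adjusted p = 0.00144), and the PM10 responses of the 2 states differed by -0.85 (SE 0.087, adjusted p = 0.00291), the opposite sign from JAG1. POFUT1 and POGLUT1, which place the first sugars on Notch, rose by 0.59 and 0.60 with cytokines alone, and RFNG fell by 0.39.

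The machinery that cuts the receptor was higher or not called in most cases. FURIN, which cuts the receptor during maturation, was 25.8 and 24.3 FPKM in normal and 40.6 and 45.3 FPKM in inflamed hIECs, a rise by 0.75, and it rose by a further 0.44 with PM10 in inflamed hIECs. ADAM10, the protease that answers ligand binding, rose by 0.41 with cytokines alone, and ADAM17 was not called. Of 6 gamma-secretase genes 1 was higher (APH1A, 0.39), 1 lower (PSEN2, -0.30) and 4 not called. The PSEN2 call was lost without inflamed library 1 (adjusted p = 0.0547) or 2 (0.0516). MIB2, an E3 ligase that makes ligands competent to signal, fell by 0.45, and MIB1 and NEURL1B were not called.

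Of 9 nuclear activators 3 were higher with cytokines alone, 1 lower and 5 not called. RBPJ was 9.19 and 9.54 FPKM in normal and 10.97 and 11.3 FPKM in inflamed hIECs, a rise by 0.23 with cytokines alone that was lost without normal library 1 or either inflamed library (adjusted p = 0.0602 to 0.0909). MAML2 and MAML3, Mastermind genes, rose by 0.60 and 0.52, and MAML1 was not called. KAT2A, an acetyltransferase coactivator, fell by 1.19. Among 12 corepressors 3 were higher and 5 lower with cytokines alone. TLE genes encode Groucho corepressors recruited by HES proteins. TLE2 fell by 1.79, TLE1 by 0.92 and TLE3 by 0.81, whereas TLE4 rose by 0.91, from 10.4 and 9.47 FPKM in normal to 18.9 and 20.2 FPKM in inflamed hIECs.

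Receptor inhibitors and turnover genes went both ways, 3 higher and 3 lower of 9 tested with cytokines alone. DTX3L, a Deltex relative that is also an interferon-induced gene, rose by 2.28, from 2.47 and 2.05 FPKM to 14.9 and 14.8 FPKM. DTX1, a Deltex gene known as a Notch target in lymphocytes, was 2.55 and 2.07 FPKM in normal and 0.70 and 0.65 FPKM in inflamed hIECs. It passed the filter only through the groups without cytokines, so its difference of -0.98 is given as a description. DTX3 fell by 0.73. DTX4, also counted as higher, was 1.04 and 0.91 FPKM in normal and 1.88 and 1.51 FPKM in inflamed hIECs. DTX4 passed the filter only through the groups with cytokines, so its call there is no result. NUMB, an inhibitor of Notch, rose by 0.46 while its relative NUMBL fell by 0.48. ITCH, an E3 ligase that degrades Notch, was called with PM10 in inflamed hIECs, a rise by 0.70 that was lost without either inflamed library or inflamed PM10 library 2 (adjusted p = 0.0614 to 0.0790). Of the further HES and HEY genes, HES4 fell by 0.86 and HEYL rose by 0.50 with cytokines alone, so HEYL went against HES1 and HEY1. HEYL was 12.1 and 11.2 FPKM in normal and 17.03 and 16.9 FPKM in inflamed hIECs. NRARP, a feedback target of Notch, did not exceed 0.50 FPKM in any library.

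**Figure D5:**
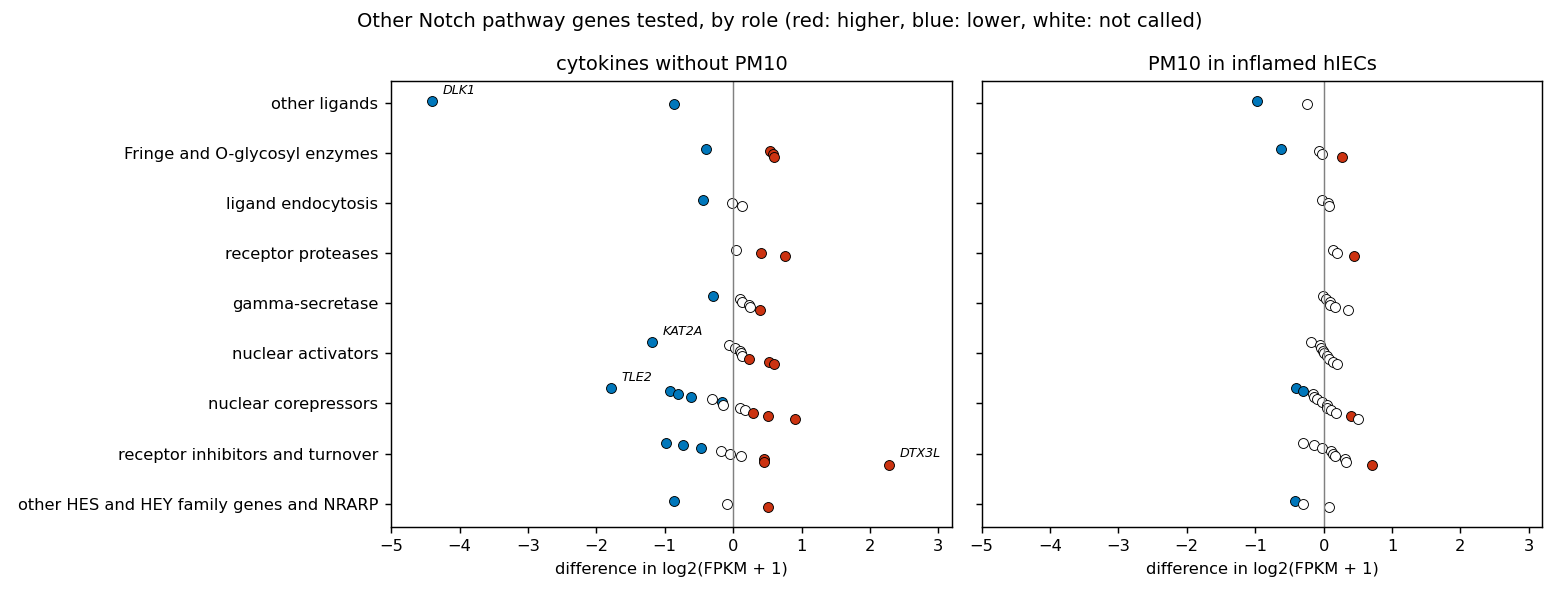
Differences in log2(FPKM + 1) of the 51 other Notch pathway genes tested, 1 point a gene, by role, for cytokines without PM10 (left) and PM10 in inflamed hIECs (right); red is called higher, blue lower and white not called by limma, and called genes beyond a difference of 1 are named. Both directions occur in most roles on the left, where DLK1, TLE2 and KAT2A lie furthest to the lower side and DTX3L to the higher side. The blue points on the left include DLK2 and DTX1, which passed the filter only through the groups without cytokines. The red points there include DTX4, which passed it only through the groups with cytokines.

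Marker genes of several cell types moved with the same libraries. The summed level of the 12 epithelial markers was 614 to 665 FPKM without cytokines and 297 to 360 FPKM with them, with CDX2, VIL1 and 4 others at 0 throughout. SOX9, a crypt progenitor gene, fell by 1.63 with cytokines alone, while LGR5, a stem cell receptor, rose by 0.97. By qPCR, the paper instead reports reduced LGR5 in cytokine-treated cells. The 8 smooth muscle and pericyte markers summed to 1316 to 1744 FPKM without and 2452 to 2508 FPKM with cytokines, with MYH11 at 0 in all libraries. Most of that sum was ACTA2 and TAGLN, which rose with cytokines alone by 0.56 and 0.65, whereas RGS5, MCAM and CSPG4, which mark pericytes, fell by 2.34, 1.24 and 0.87, and CNN1 was not called. The 9 mesenchymal markers also went both ways with cytokines alone. LUM, THY1 and COL1A1 rose by 1.31, 0.60 and 0.39, while PDGFRA, COL3A1, PDGFRB and COL1A2 fell by 0.69, 0.53, 0.28 and 0.13. DCN and VIM were not called. The sum of the 9 was lowest, 2702 to 2741 FPKM, in inflamed hIECs with PM10. The 7 endothelial markers summed to 2.85 to 5.45 FPKM, with PECAM1, CDH5, KDR and VWF at 0, the cells in which NOTCH4 and DLL4 are best known. The 8 neuronal and glial markers summed to 191 to 214 FPKM without and 116 to 134 FPKM with cytokines, with ELAVL3, ELAVL4 and SOX10 at 0. Their part in the differences of the Notch genes was not tested.

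The genes most like JAG1, NOTCH2, NOTCH3 and HES1 were ranked by Pearson r of log2(FPKM + 1) over the 8 libraries, among 7699 other protein-coding genes with a mean of at least 5 FPKM. These libraries share 4 treatments, so such values describe the pattern and carry no test. For JAG1 the first 3 were TIMM10 (r = 0.964), MCAM (0.933) and TGFB1I1 (0.927), a looser match than for the others. MCAM, a pericyte and smooth muscle adhesion molecule found here by its Ensembl ID, was 13.96 and 11.6 FPKM in normal hIECs, 5.88 and 5.90 FPKM with PM10, 4.53 and 5.12 FPKM in inflamed hIECs, and 8.40 and 9.75 FPKM in inflamed hIECs with PM10. Its interaction was 1.78 (SE 0.15). MCAM was picked here for its likeness to JAG1 over these same libraries, which favours a like crossing, so no p is given. NOTCH2 was most like PSMD2, MCFD2 and SEMA3C (r = 0.999, 0.999 and 0.998), and NOTCH3 most like EEF1B2, EEF1A2 and DACT1 (r = 1.00, 0.990 and 0.989). HES1 was most like DIO3, MST1 and DACT3 (r = 0.999, 0.998 and 0.998), which were lower in every group with cytokines than in either group without.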

How the data were processed

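RNA of 8 hIEC libraries was sequenced by the authors as paired-end, poly-A selected libraries that did not keep strand. Per the labels and the study's methods, reads were trimmed with Cutadapt v.3.7 and Sickle v.1.33 and mapped to GRCh38 with HISAT2 v.2.2.1, and the authors' deposited FPKM values per gene came from StringTie v.2.2.0. Depth was not given, so no counting interval could be made. Of the Ensembl IDs, 99.5% matched GENCODE release annotation for GRCh38, which gave positions and overlaps.

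From the deposited FPKM values, log2(FPKM + 1) was computed, genes at or above 1 FPKM in at least 2 libraries were kept (14206), and all 8 libraries were fitted together in limma 3.58.1 (R 4.3.3) with 4 group means and a variance trend. Two-sided p-values were adjusted by Benjamini-Hochberg within each comparison, and the fitting script was tested on simulated data. Differences on this scale understate the change of low genes. The 10 members are all described, and pathway genes were named by a rule of up to 3 called genes per role with the largest differences. RBPJ, MAML1, EP300, MIB1, NEURL1B, ADAM17, RFNG, TLE3, NUMB, NUMBL, ITCH, DTX4, NRARP and the genes at 0 were named after their values were seen. The members and lists were chosen with earlier results of these data known. Samples were grouped by title. The doses are from the study's methods. Same-numbered libraries deviated together with r of -0.0015 to 0.079 over 6 pairs of groups, none over 0.1, so replicate numbers were not taken as pairs. Alternatives covered the pseudocount, filter, scaling, fitted groups, variance trend, replicate block and each library left out.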

Additional observations from a re-analysis of the deposited data

Results flagged for a closer look

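The response to PM10 differed between inflamed and normal hIECs, by the limma interaction term on the log2(FPKM + 1) scale, for 2 members and 2 further pathway genes. JAG1 differed by 1.41 and NOTCH3 by 0.35, both toward higher in the inflamed state. DLK1 differed by -1.29 and LFNG by -0.85, both toward lower. The calls of JAG1, DLK1 and LFNG passed in all 18 alternative analyses of each (adjusted p up to 0.0153, 0.0279 and 0.0215), and that of NOTCH3 in 8 of 18. DLK1 in inflamed hIECs lay at 1.91 to 5.35 FPKM, where the added 1 FPKM shrinks the difference. The groups held 2 libraries each, too few to look for a library far from the rest within a group.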

How the results depend on the processing

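Over 559 member results under the alternatives, 525 kept direction and side of the threshold. Both counts include the cytokine comparisons of HEY1, which were set aside above because the filter favoured its call there. With PM10 in normal hIECs, 1 member called became 2 with a 5 FPKM filter or without mitochondrial genes, 0 with only the groups compared, and 1 to 2 with a library left out. The 4 pathway genes became 9 without mitochondrial genes, 0 with only the groups compared, 2 without a variance trend, and 0 to 10 with a library left out. All genes called went from 1311 to 2067 without mitochondrial genes, to 23 with only the groups compared, and to 194 to 2627 with a library left out. With PM10 in inflamed hIECs, leaving out a library gave 0 to 3 members, 4 to 9 pathway genes and 675 to 2992 genes in all. The cause of these changes was not tested, apart from the smaller fits holding fewer libraries.

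For the interaction, 2 members became 1 without a filter, without a variance trend and with the replicate block, and 1 to 3 with a library left out, where all genes went from 937 to 263 to 1266. The replicate block removed the NOTCH3 call (adjusted p = 0.0708) and changed no other member call. The sign of the NOTCH3 difference with PM10 in normal hIECs turned without mitochondrial genes (0.031), without normal library 1 (0.044) and without normal PM10 library 1 (0.016), within a range of -0.059 to 0.044 over libraries left out. The HEY1 interaction turned with quantile normalization (0.16), without normal PM10 library 1 (0.021) and without inflamed library 1 (0.11), with -0.21 to 0.11 over libraries left out. None of these passed the threshold. Of genes called with PM10 in normal hIECs 59.7% were higher, against 42.9% after median centring and 74.9% without mitochondrial genes. For the interaction 32.0% were higher, against 45.7% after median centring and 46.6% after quantile normalization. Libraries left out of an arm leave 1 library there, assumed to vary like the rest. Unknown depth limits what a listed 0 can say.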
